A study of Homo sapiens with 4 samples.

Results

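The genes described here are 10 members of the epidermal growth factor receptor (EGFR) system in a breast cancer cell line. They are the 4 receptors of the family (EGFR, ERBB2, ERBB3 and ERBB4), 5 of their ligands (AREG, EREG, TGFA, HBEGF and BTC) and the receptor inhibitor ERRFI1. They were taken by gene symbol from the 32955 genes of the deposited table. All 10 were listed, and 7 passed the filter on low values (a mean of at least 1 RPKM, passed by 13871 genes). RPKM scales the reads on a gene to the length of its exons and to the total of reads assigned to genes in that library. The length counts the bases of all annotated exons (10321 for ERBB2 and 1648 for AREG), not those of the transcripts present. Levels of different genes can therefore be compared only roughly on it.

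RNA-seq was used to ask which mRNAs differ when miR-217 is raised in the triple-negative breast cancer line MDA-MB-231, the label of all 4 libraries. For 2 libraries the cells had received mimic NC, a negative control oligonucleotide, and for the other 2 they had received miR-217 mimic, a synthetic RNA that takes the role of the microRNA. All cells were cultured in DMEM with fetal bovine serum and all went through a transfection, so no library shows untreated cells. The libraries of each group are numbered 1 and 2 in the labels, which do not say what the number marks or whether the libraries came from separate cultures, and p-values therefore measure only the spread between these libraries, which may be technical.

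The 4 receptors are tyrosine kinases of the cell surface that act as pairs. A ligand bound to EGFR, ERBB3 or ERBB4 makes the receptors pair, the paired tails are phosphorylated, and adaptors bound there carry the signal to RAS and ERK and to PI3K. The ligands are made as precursors anchored in the membrane and are released by proteases, mainly of the ADAM family. Several ligand genes and ERRFI1 are known to be switched on by ERK signalling itself, the ligands as positive feedback and ERRFI1 as a brake that binds the EGFR kinase domain. EGFR is abundant in many triple-negative breast cancer lines, whereas ERBB2 amplification defines a different class of breast cancer.

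The agent was miR-217, and the bases that pair with a target are its seed. The mature sequence (RefSeq, GRCh38.p14, chr2:55983020-55983042, minus strand) is shown with its seed, bases 2 to 8, in capitals, followed by the 4 sites in the 3′UTRs of the members that match the seed (GENCODE 29 transcripts on GRCh38, 23 bases around each site, the 7 matching bases in capitals, read on the gene's strand).
hsa-miR-217-5p: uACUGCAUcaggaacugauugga
EREG site: attcagtaATGCAGTttttaaaa
TGFA site: taacacacATGCAGTgagaggcc
BTC site: aaattttgATGCAGTaaattcat
ERRFI1 site: tcacttagATGCAGTgagacaca

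The EREG window lies at chr4:74388159-74388181 on the plus strand, in the last of 5 exons, and its match spans bases 3359 to 3365 after the stop codon of a 3′UTR of 3943 bases. The TGFA window lies at chr2:70448753-70448775 on the minus strand, in the last of 6 exons, and its match spans bases 2092 to 2098 of a 3′UTR of 3579 bases. The BTC window lies at chr4:74745607-74745629 on the minus strand, in the last of 6 exons, with the match at bases 1056 to 1062 of a 3′UTR of 1918 bases. It is the 8-base form of the site, in which an A follows the match (ATGCAGTA). The ERRFI1 window lies at chr1:8012059-8012081 on the minus strand, in the last of 4 exons of a transcript whose 3′UTR has 1491 bases, and the longest annotated 3′UTR of this gene, of 1843 bases, does not hold it.

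In the longest 3′UTR, 3 of the 10 members (30.0%) therefore had a match, and 4 of 10 (40.0%) had one in any annotated 3′UTR. Among 9913 tested protein-coding genes with a 3′UTR the shares were 14.5% (1440 genes) and 15.8% (1571 genes), and the 8-base form was found in 3.67% (364 genes). The member counts also include ERBB4, HBEGF and BTC, which were not tested, and BTC is among those with a match. EGFR, ERBB2, ERBB3, ERBB4, AREG and HBEGF had no match to these 7 letters in any annotated 3′UTR. A match is a description of the sequence only.

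Among the receptors, EGFR was by far the most abundant. The gene lies at chr7:55019021-55211628 on the plus strand of hg38, the build of the deposited coordinates, and was covered by 9270 to 15907 reads per library. EGFR measured 21.9 and 22.5 RPKM in the mimic NC libraries numbered 1 and 2, and 19.5 and 22.7 RPKM in the miR-217 mimic libraries numbered 1 and 2. The lowest and the highest value were thus both found with miR-217 mimic, and the groups overlapped. On the log2(RPKM + 1) scale, on which all differences below are given and which understates differences of low genes, the mean of miR-217 mimic minus mimic NC was -0.07 ± 0.13 (SE, limma, n = 2 libraries per group, 95% interval -0.42 to 0.27, adjusted p = 1.00). A part of its exon bases (1.49%) is shared with EGFR-AS1 on the opposite strand, and how strand was treated in counting is not given in the sources used here.

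ERBB2, which has no known ligand of its own and is the preferred partner of the other receptors, is encoded at chr17:39687914-39730426 (plus strand). It measured 3.23 and 2.51 RPKM in mimic NC libraries 1 and 2, and 3.17 and 2.27 RPKM in miR-217 mimic libraries 1 and 2. The libraries numbered 1 were high and those numbered 2 low in both groups, and the groups overlapped, with a difference for miR-217 mimic of -0.06 ± 0.18 (SE, limma, 95% interval -0.54 to 0.41, adjusted p = 1.00). MIEN1 and PGAP3, on the opposite strand, share 7.41% of its exon bases.

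ERBB3, a neuregulin receptor whose own kinase is weak and which is a strong recruiter of PI3K, lies at chr12:56079857-56103505 (plus strand). It measured 2.77 and 1.94 RPKM in mimic NC libraries 1 and 2, and 2.62 and 1.49 RPKM in miR-217 mimic libraries 1 and 2. The order of the libraries was that of ERBB2, and the difference for miR-217 mimic was -0.15 ± 0.24 (SE, limma, 95% interval -0.77 to 0.47, adjusted p = 1.00). ERBB4, the other neuregulin receptor (chr2:211375717-212538841, minus strand), was listed at only 0.160, 0.0697, 0.179 and 0.115 RPKM in the same order of libraries, from 43 to 124 reads, and was below the filter of the test.

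Of the summed RPKM of the 4 receptors, which was 25.5 to 28.1 per library, EGFR made up 78.1% and 83.3% in the mimic NC libraries and 76.6% and 85.4% in the miR-217 mimic libraries. ERBB2 contributed 8.52% to 12.4%, ERBB3 5.62% to 10.3% and ERBB4 0.258% to 0.701%. In each group the EGFR share was the higher in the library numbered 2. The shares rest on the annotated exon lengths.

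Among the ligands, amphiregulin (AREG), an EGFR ligand of the breast epithelium, is encoded at chr4:74445134-74455009 (plus strand). It measured 3.39 and 6.62 RPKM in mimic NC libraries 1 and 2, and 3.64 and 7.64 RPKM in miR-217 mimic libraries 1 and 2, from 320 to 517 reads. The libraries numbered 2 held about double the level of those numbered 1, with ratios of 1.95 in mimic NC and 2.10 in miR-217 mimic. The difference for miR-217 mimic was 0.13 ± 0.40 (SE, limma, 95% interval -0.92 to 1.18, adjusted p = 1.00).

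Epiregulin (EREG), a ligand of EGFR and ERBB4, lies next to AREG at chr4:74365143-74388751 (plus strand). It measured 4.24 and 4.57 RPKM in mimic NC libraries 1 and 2, 3.78 RPKM in miR-217 mimic library 1 and 7.71 RPKM in miR-217 mimic library 2. The last of these stood above the other 3 libraries, with a 95% counting interval (exact Poisson) of 7.31 to 8.12 RPKM against an upper bound of 4.83 RPKM in the next highest library, and intervals of this kind cover counting error only. The difference for miR-217 mimic was -0.13 between the libraries numbered 1 and 0.64 between those numbered 2, so its direction was not shared. Its mean was 0.26 ± 0.30 (SE, limma, 95% interval -0.53 to 1.04, adjusted p = 1.00). The gap between these differences, 0.78, was exceeded in size by 2.16% of the genes tested, for which the median size was 0.13.

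The miR-217 mimic library numbered 2, in which EREG was high, had the fewest reads on genes, 32635814, against 47374957 to 57933183 in the other 3 libraries. The summed level of 4 epithelial junction markers (CDH1, EPCAM, CLDN3 and CLDN4) was highest there, 8.38 RPKM against 5.17 to 6.22 RPKM in the other 3. EPCAM gave most of it, at 3.90, 5.06, 5.16 and 7.41 RPKM in mimic NC libraries 1 and 2 and miR-217 mimic libraries 1 and 2, and CLDN3 was listed at 0 in 3 of the 4 libraries. The part of these in the EREG value was not tested. The leukocyte marker list is not reported here, so the markers given are not a full account of what was higher in that library. In bulk RNA, a difference in the share of cells that express a gene and a difference in RNA per cell cannot be told apart.

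Transforming growth factor alpha (TGFA), another EGFR ligand, lies at chr2:70447280-70554193 (minus strand). It measured 3.38 and 4.12 RPKM in mimic NC libraries 1 and 2, and 2.98 and 4.27 RPKM in miR-217 mimic libraries 1 and 2. The miR-217 mimic values enclosed those of mimic NC, and the difference was -0.05 ± 0.19 (SE, limma, 95% interval -0.53 to 0.44, adjusted p = 1.00).

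Heparin-binding EGF-like growth factor (HBEGF, chr5:140332843-140346631, minus strand), a ligand of EGFR and ERBB4, was low at 0.435, 0.476, 0.460 and 0.406 RPKM in mimic NC libraries 1 and 2 and miR-217 mimic libraries 1 and 2, from 40 to 76 reads. Unlike the other ligands above, it did not separate by replicate number. Betacellulin (BTC, chr4:74744759-74794686, minus strand) had 0, 2, 2 and 2 reads in the same order, at or under the 3 reads that a count of 0 allows, and no fold is given for it. Its seed match, the only 8-base form among the members, thus stands in a transcript with too few reads to be measured at this depth.

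The 5 ligands summed to 11.5 and 15.8 RPKM in mimic NC libraries 1 and 2, and to 10.9 and 20.0 RPKM in miR-217 mimic libraries 1 and 2. AREG made up 29.6% to 41.9% of this sum, EREG 28.9% to 38.5%, TGFA 21.3% to 29.5% and HBEGF 2.03% to 4.23%. AREG led in mimic NC library 2, and EREG led in the other 3 libraries.

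ERRFI1, also known as MIG6, is the cytoplasmic inhibitor of the family and lies at chr1:8004404-8026308 (minus strand). It measured 3.42 and 7.22 RPKM in mimic NC libraries 1 and 2, and 2.98 and 6.12 RPKM in miR-217 mimic libraries 1 and 2, from 666 to 1432 reads. It was lower with miR-217 mimic within both numbers, by -0.15 between the libraries numbered 1 and -0.21 between those numbered 2, but the groups overlapped because the numbers lay much further apart. The difference for miR-217 mimic was -0.18 ± 0.41 (SE, limma, 95% interval -1.25 to 0.90, adjusted p = 1.00).

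**Figure D1:**
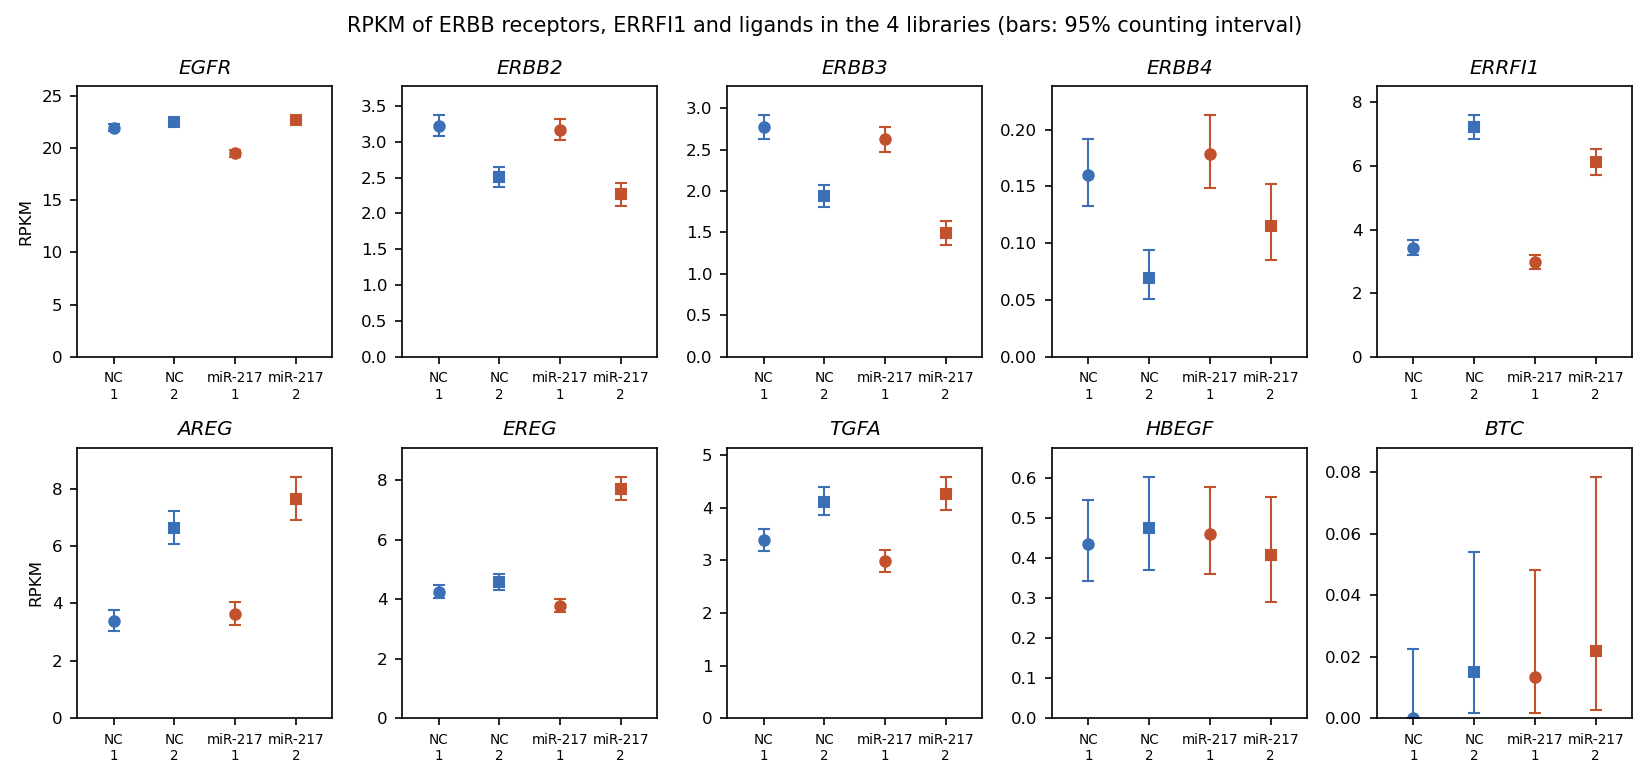
RPKM (vertical axes, each starting at 0) of the 10 genes in the 2 mimic NC libraries (blue) and the 2 miR-217 mimic libraries (orange), with replicate number 1 as circles and number 2 as squares, and with bars for the exact 95% Poisson interval of the reads. AREG and ERRFI1 sit higher in both libraries numbered 2, ERBB2 and ERBB3 sit lower there, and EREG stands apart at 7.71 RPKM in miR-217 mimic library 2.

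Ordered by mean RPKM over the 4 libraries, the members were EGFR (21.7), AREG (5.32), EREG (5.07), ERRFI1 (4.94), TGFA (3.69), ERBB2 (2.79), ERBB3 (2.21), HBEGF (0.444), ERBB4 (0.131) and BTC (0.0125). EGFR was above AREG in 4 of 4 libraries without overlap. AREG, EREG, ERRFI1, TGFA and ERBB2 followed each other with overlapping ranges, and AREG was above EREG in only 1 of 4 libraries. The counting intervals of AREG and EREG overlapped in both miR-217 mimic libraries. ERBB2 was above ERBB3 in 4 of 4 libraries although their ranges overlapped, and ERBB3, HBEGF, ERBB4 and BTC were separated without overlap. The order rests on the annotated exon lengths and could differ with those of the transcripts present.

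For the question of the experiment, the comparison of miR-217 mimic with mimic NC, 0 of the 7 members tested had an adjusted p under 0.05 in limma, beside 0 of 13871 genes (0%). At an unadjusted p under 0.05 the members numbered 0 of 7, beside 165 of 13871 genes (1.19%). The unadjusted limma p of the members ran from 0.440 (EREG) to 0.803 (TGFA). With limma voom on the recovered reads, 0 members passed at either level. The median difference of the 7 members was -0.06, beside -0.02 over all genes tested, with 2 members positive (AREG and EREG) and 5 negative.

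Both miR-217 mimic libraries lay above both mimic NC libraries in 0 of the 7 members, beside 9.72% of all genes tested, and below them in 0 of 7, beside 13.5%. Within the numbers, AREG was positive and ERBB2, ERBB3 and ERRFI1 were negative in both, whereas EGFR, EREG and TGFA were negative between the libraries numbered 1 and positive between those numbered 2. The intervals of limma still allowed differences of considerable size. For EGFR they reached -0.42 and 0.27, whereas for AREG and ERRFI1 they spanned more than 2 log2 units. This fit held no term for the replicate number, so differences between the numbers counted as spread. With a replicate block the limma intervals were -0.08 to 0.34 for AREG, -0.39 to 0.03 for ERRFI1 and -0.30 to 0.81 for EREG. The labels do not say that the numbers pair the libraries.

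When 1 library was left out, so that the numbers were no longer balanced between the groups, each of the 7 differences changed sign in at least 1 of the 4 such fits. Without miR-217 mimic library 1, EREG had a difference of 0.69 with an unadjusted limma p of 0.00802 and an adjusted p of 0.646. In that fit, whose spread comes from the 2 mimic NC libraries and assumes that the lone miR-217 mimic library varies like them, 866 of 13871 genes (6.24%) had an unadjusted p under 0.05.

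**Figure D2:**
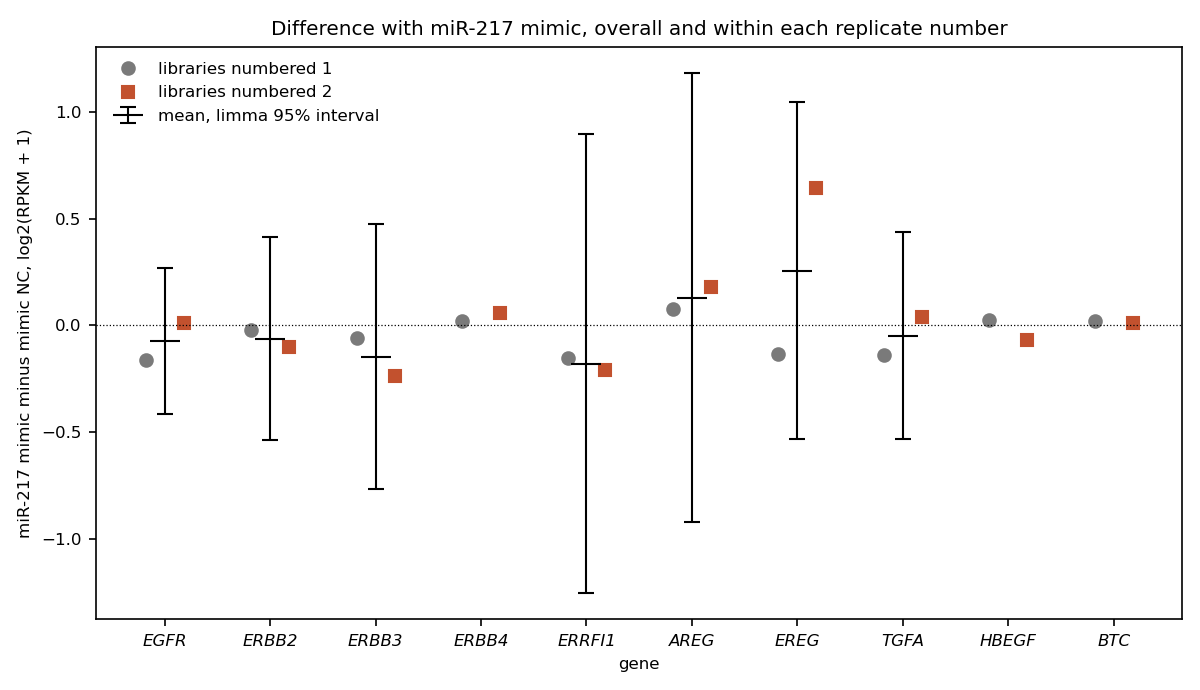
Difference of miR-217 mimic minus mimic NC on the log2(RPKM + 1) scale (vertical axis) for each of the 10 genes, between the libraries numbered 1 (grey circles) and between those numbered 2 (orange squares), with the mean and 95% limma interval in black for the 7 genes tested. All 7 intervals include 0, and the EREG values of -0.13 and 0.64 lie furthest apart.

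The replicate number separated the members more than the mimic did. The numbers are only labels, so the differences between them are given as a description with no test. The libraries numbered 2 lay above those numbered 1 in 5 of the 7 members (EGFR, AREG, EREG, TGFA and ERRFI1), beside 26.9% of all genes tested, and below them in 2 of 7 (ERBB2 and ERBB3), beside 35.5%. Over all genes the size of the difference had a median of 0.17 between the numbers and of 0.09 between the treatments, and the first principal component, with 71.3% of the variance, separated the numbers.

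ERRFI1 had the largest mean difference between the numbers among the members (0.87, from 0.89 in mimic NC and 0.84 in miR-217 mimic), and 0.908% of the genes tested had a higher one. AREG followed with 0.79 in mimic NC and 0.90 in miR-217 mimic, the latter above that of ERRFI1, and its mean was exceeded by 0.966% of genes. For both genes the ratio of the RPKM values was close to 2 in each group, at 2.11 and 2.05 for ERRFI1 and 1.95 and 2.10 for AREG. EREG differed by 0.09 in mimic NC and 0.87 in miR-217 mimic, and TGFA by 0.22 and 0.40. EGFR differed least among the tested members, by 0.03 and 0.21.

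ERBB3 differed by -0.36 in mimic NC and -0.54 in miR-217 mimic, and ERBB2 by -0.27 and -0.35. AREG, EREG, TGFA, ERRFI1 and EGFR thus stood on the side of higher values in the libraries numbered 2, and ERBB2 and ERBB3 on the other, while of the genes below the filter ERBB4 was lower in both libraries numbered 2 (ratios of 0.435 in mimic NC and 0.646 in miR-217 mimic) and HBEGF overlapped. Luminal keratins moved with the number in the direction of these receptors. KRT8 measured 421, 165, 393 and 154 RPKM and KRT18 measured 303, 155, 283 and 142 RPKM in mimic NC libraries 1 and 2 and miR-217 mimic libraries 1 and 2. The 4 luminal markers listed (ESR1, GATA3, KRT8 and KRT18) summed to 724, 319, 676 and 296 RPKM, of which ESR1 gave 0.0294 to 0.0756 RPKM, and their part in the differences of the members was not tested.

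The other marker lists describe the cells further. All 6 mesenchymal markers (VIM, CD44, CAV1, AXL, ZEB1 and MSN) had reads in every library, at 5.17 to 157 RPKM, and summed to 234 and 233 RPKM in the libraries numbered 1 and to 169 and 197 RPKM in those numbered 2. CDH1 was at 0.169 to 0.433 RPKM. The endothelial markers PECAM1 and CDH5 summed to 3.56 and 3.11 RPKM in the libraries numbered 1 and to 1.35 and 1.15 RPKM in those numbered 2. Single values of these 2 genes ran from 0.0507 to 3.49 RPKM, so 1 gene gave nearly all of the 3.56 RPKM. The 4 fibroblast markers summed to 4.93 and 4.56 RPKM in the libraries numbered 1 and to 1.63 and 1.63 RPKM in those numbered 2, so these 3 lists were also lower in the libraries numbered 2.

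**Figure D3:**
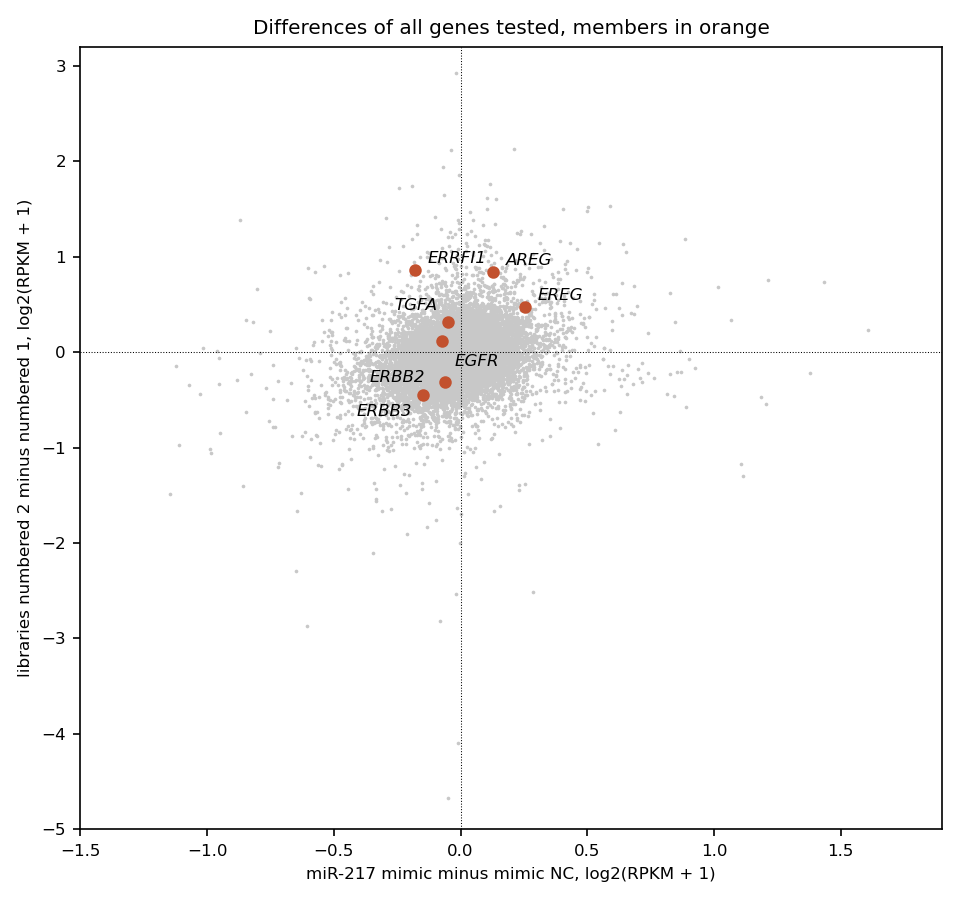
Mean difference of miR-217 mimic minus mimic NC (horizontal axis) against the mean difference of the libraries numbered 2 minus those numbered 1 (vertical axis), both on the log2(RPKM + 1) scale, for the 13871 genes tested (grey) and the 7 members tested (orange). The members spread from -0.45 (ERBB3) to 0.87 (ERRFI1) along the vertical axis and only from -0.18 (ERRFI1) to 0.26 (EREG) along the horizontal axis.

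The 100 bases before the RefSeq start (GRCh38.p14) are shown, on the gene's strand, for ERRFI1 and AREG, the members with the largest mean difference between the numbers, and for EREG, the neighbour of AREG. Capitals mark exact matches to the letters of a cAMP response element (TGACGTCA) and of a TATA box (TATAAA). The windows are chr4:74445036-74445135 (plus strand) for AREG, chr4:74365045-74365144 (plus strand) for EREG and chr1:8026310-8026409 (minus strand) for ERRFI1.
AREG promoter: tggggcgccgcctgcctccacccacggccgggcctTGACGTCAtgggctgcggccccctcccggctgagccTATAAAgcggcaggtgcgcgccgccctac
EREG promoter: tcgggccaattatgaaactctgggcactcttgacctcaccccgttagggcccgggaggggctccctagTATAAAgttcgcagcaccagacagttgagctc
ERRFI1 promoter: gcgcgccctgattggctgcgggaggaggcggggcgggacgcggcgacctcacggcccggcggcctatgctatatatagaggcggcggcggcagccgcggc

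Windows of 250 bases before the start were found for 9 of the 10 members, 11 windows in all, and 5 motifs were searched on both strands. TGACGTCA was present in the AREG window only, 65 to 58 bases before the start, and in 1.65% of all 35116 windows. TATAAA was present 29 to 24 bases before the AREG start, 32 to 27 bases before the EREG start and in an EGFR window that begins within the gene, and in 10.7% of all windows. The AP-1 motif TGANTCA was in windows of EGFR and ERBB2 (6.57% of all windows), and the TEAD motif GGAATG was in windows of EGFR and EREG (11.9%). All matches of EGFR lay in its window within the gene. TGATGNAA, the motif of ATF4 with C/EBP, was in none of the 11 windows and in 3.14% of all. None of the 5 motifs was in the ERRFI1 window. Only the letters given were searched, and the run tatatata in the ERRFI1 promoter shown was not counted. A match is a description of the letters and not of a bound site.

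AREG, EREG and BTC also share a locus. Together with EPGN, which encodes epigen, they occupy 486 kb of chromosome 4. From the end of EPGN to the start of EREG are 49.8 kb, from EREG to AREG 56.4 kb and from AREG to BTC 290 kb. The neighbours differed in level, as EPGN had 2, 0, 1 and 8 reads in mimic NC libraries 1 and 2 and miR-217 mimic libraries 1 and 2, and BTC had at most 2. Only EREG and AREG of this locus were thus above the filter, and the highest value of each of EPGN, EREG and AREG was in miR-217 mimic library 2. For AREG the 95% counting interval there, 6.92 to 8.42 RPKM, overlapped that of mimic NC library 2, 6.06 to 7.22 RPKM. For EPGN it rests on 8 reads.

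The genes with a pattern across the 4 libraries most like that of ERRFI1, the member with the widest range (1.05), were found by the Euclidean distance of their centred log2(RPKM + 1) values. The nearest 5 were AC093642.5 (distance 0.0256), SLFN5 (0.0855), SVIL (0.103), AC240274.1 (0.114) and PMAIP1 (0.116). PMAIP1, which encodes the pro-apoptotic protein NOXA, measured 5.99 and 12.7 RPKM in mimic NC libraries 1 and 2, and 5.72 and 11.6 RPKM in miR-217 mimic libraries 1 and 2. SLFN5, a gene of the Schlafen family, measured 5.21, 9.98, 4.16 and 8.43 RPKM in the same order. Both followed the same order of numbers, which the selection by likeness brings with it, and the likeness rests on 4 libraries only.

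The genes around the receptors were described by 5 lists of known components. Among 6 other ligands, 5 were listed and only NRG4, a ligand of ERBB4, was above the filter. It measured 6.80 and 5.29 RPKM in mimic NC libraries 1 and 2, and 6.38 and 3.90 RPKM in miR-217 mimic libraries 1 and 2, with a difference of -0.22 for the mimic and -0.45 between the numbers. NRG4 was thus above AREG, EREG and TGFA in both libraries numbered 1, and its order between the numbers was the reverse of theirs in both groups. EGF had 4 to 6 reads and NRG1, the main ligand of ERBB3, was at 0.114, 0.235, 0.159 and 0.476 RPKM.

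Of 10 genes of ligand shedding, 8 were tested and 0 had an unadjusted p under 0.05 in limma (1.19% of all genes tested). Their median difference was -0.06, with 2 positive and 6 negative, beside 6157 positive and 7714 negative among all genes tested. ADAM9, a membrane protease, had the largest positive difference (0.27) and measured 49.7 and 43.0 RPKM in mimic NC libraries 1 and 2, and 58.9 and 53.1 RPKM in miR-217 mimic libraries 1 and 2, so that the groups did not overlap. ADAM17, the main protease for AREG, EREG and TGFA, measured 10.54 and 11.66 RPKM with mimic NC and 10.47 and 10.20 RPKM with miR-217 mimic, a narrow separation in the other direction. In the list, both miR-217 mimic libraries were thus above both mimic NC libraries in 1 of 8 (9.72% of all genes tested) and below them in 1 of 8 (13.5%). FRMD8, which stabilises the complex of iRhom and ADAM17, had the largest negative difference (-0.10). Between the numbers the list had a median of -0.14, from ADAM10 (-0.29), the main protease for BTC, to ADAM17 (0.05).

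Of 19 adaptors and effectors, 16 were tested and 0 had an unadjusted p under 0.05 in limma (1.19% of all genes tested). Their median was -0.06, with 5 positive and 11 negative, beside 6157 positive and 7714 negative among all genes tested. Both miR-217 mimic libraries were below both mimic NC libraries in 5 of 16 (13.5% of all genes) and above them in 0 (9.72%). SOS1, the exchange factor that loads RAS with GTP once GRB2 has brought it to the receptor, had the largest negative difference (-0.34), at 7.74 and 7.19 RPKM with mimic NC and 6.18 and 5.26 RPKM with miR-217 mimic, without overlap. SOS1 had an unadjusted p of 0.0484 with no filter on low values and of 0.0408 in limma voom, with adjusted p = 1.00 in both. PLCG1, the phospholipase recruited by EGFR, had the largest positive one (0.09). Between the numbers the list spread from VAV3 (-0.96) to VAV2 (0.47), which both encode guanine nucleotide exchange factors, around a median of -0.10.

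Of 21 genes of receptor downregulation and traffic, 20 were listed and 18 were tested. In limma, 0 of these had an unadjusted p under 0.05 (1.19% of all genes tested). Both miR-217 mimic libraries were above both mimic NC libraries in 1 of 18 (9.72% of all genes) and below them in 4 (13.5%). The median of the list was -0.07, with 3 positive and 15 negative, compared with 6157 positive and 7714 negative among all genes tested. Its extremes were PTPN2, a phosphatase that acts on EGFR (0.24), and SOCS5, which promotes EGFR degradation (-0.20). Between the numbers SOCS5 was also the lowest (-0.33), and RNF41, the ubiquitin ligase for ERBB3 also known as NRDP1, was the highest (0.60) around a median of 0.05. RNF41 measured 3.33 and 5.49 RPKM in mimic NC libraries 1 and 2, and 3.03 and 5.19 RPKM in miR-217 mimic libraries 1 and 2. Its order between the numbers was the reverse of that of ERBB3 in both groups.

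Of 15 genes known as transcriptional output of ERK, 14 were tested and 0 had an unadjusted p under 0.05 in limma (1.19% of all genes tested). Without miR-217 mimic library 1 there were 3 (FOSL1, SPRY2 and SPRY4), beside 6.24% of all genes in that fit. Their median difference for the mimic was 0.13, with 11 positive and 3 negative, beside 6157 positive and 7714 negative among all genes. In 0 of the 14 did the treatments separate without overlap, beside 9.72% of all genes above and 13.5% below. The extremes were SPRY2, a feedback inhibitor of receptor signalling (0.34), and CCND1, which encodes cyclin D1 (-0.10). The median was 0.01 between the libraries numbered 1 and 0.20 between those numbered 2.

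Between the numbers the ERK output genes had a median of 0.50, beside -0.04 over all genes, and both libraries numbered 2 were above both numbered 1 in 11 of 14 (26.9% of all genes tested) and below them in 2 (35.5% of all). ETV5, an ETS transcription factor, had the largest of these differences (1.62) and measured 0.904 and 4.83 RPKM in mimic NC libraries 1 and 2, and 1.04 and 5.29 RPKM in miR-217 mimic libraries 1 and 2. EGR1, an immediate-early transcription factor, went the other way (-4.10) at 20.3 and 0.269 RPKM in mimic NC libraries 1 and 2, and 20.6 and 0.234 RPKM in miR-217 mimic libraries 1 and 2. AREG, TGFA and ERRFI1 were higher in the libraries numbered 2 of both groups. EREG differed by only 0.09 between the mimic NC libraries, with counting intervals of 4.02 to 4.47 and 4.32 to 4.83 RPKM that overlapped. Whether these differences of the members relate to ERK output was not tested.

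**Figure D4:**
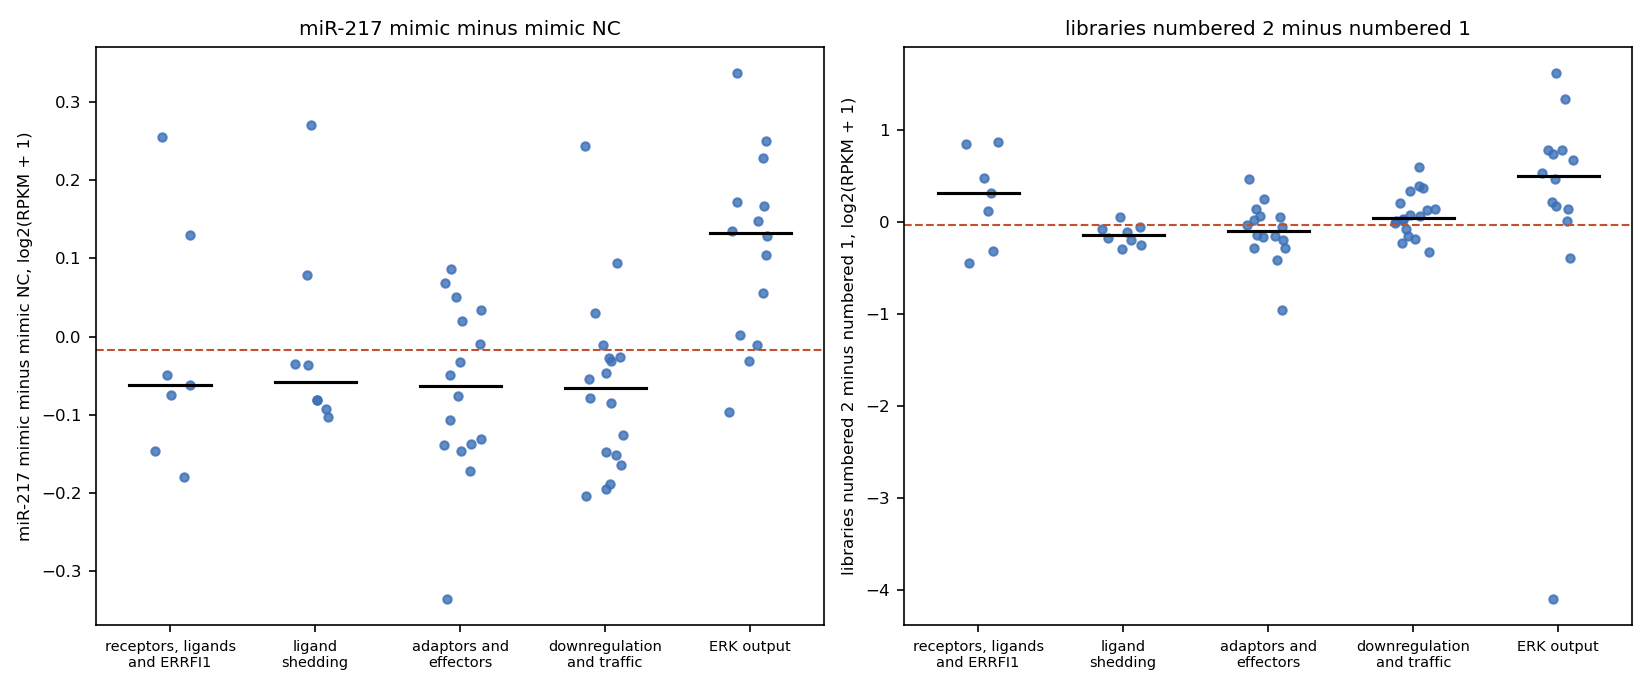
Differences on the log2(RPKM + 1) scale (vertical axes, of different range) of each tested gene of the members and of 4 pathway lists, for miR-217 mimic minus mimic NC (left) and for libraries numbered 2 minus those numbered 1 (right), with a black bar at the median of each list and a dashed line at the median of all genes tested. The ERK output list has the highest medians, 0.13 on the left and 0.50 on the right, and EGR1 lies at -4.10 on the right.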

How the data were processed

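RPKM values were deposited by the authors for 4 libraries in 1 table, with exon coordinates on hg38. The submitters' processing notes name Trimmomatic 0.36, featureCounts, Subread 1.5.1 and edgeR 3.12.1 without their roles, and the annotation is not given in the sources used here. RNA was isolated with TRIzol, and a stranded mRNA kit was used. All nonzero values were whole multiples of 1 read (tolerance 0.001), which gave 57933183 and 47374957 reads in mimic NC libraries 1 and 2, and 53356283 and 32635814 in miR-217 mimic libraries 1 and 2.

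Groups and numbers were taken from the labels. Differential expression was tested two-sided on log2(RPKM + 1) with limma 3.58.1 (R 4.3.3, lmFit and eBayes with trend, no replicate term) for the 13871 genes that averaged 1 RPKM or more, with Benjamini-Hochberg adjustment over all of them. An exact permutation test of 2 against 2 cannot go below p = 0.333. All members were named, and from each list the genes with the extreme differences; ADAM17, EGF, NRG1 and the keratins were named after their values were seen. The members and lists were chosen with earlier results of these data known. The leukocyte marker list is not reported here. The settings varied were the pseudocount (0.1), the filter (none, or an average of 5 RPKM), median centring, a replicate block, voom with TMM scaling on the recovered reads, no trend, and each library left out. The fits were also run on simulated data, and the outcome is not given here. Voom with the block was added after seeing the data. Plots were drawn with matplotlib 3.10.9 in Python 3.11.15.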

Additional observations from a re-analysis of the deposited data

How the results depend on the processing

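Among all genes, 66 were higher and 93 lower with miR-217 mimic by at least 0.32 on the log2 scale at an unadjusted p under 0.05. These counts became 152 and 162 with no filter on low values, 19 and 28 for genes averaging 5 RPKM or more, and 33 and 48 with limma voom (81 genes at an unadjusted p under 0.05), while 3 other settings gave 66 to 88 and 77 to 98. Leaving out 1 library gave 37 to 289 higher and 56 to 577 lower genes, 0 at an adjusted p under 0.05, and 0 to 1 members at an unadjusted p under 0.05. The list genes at that level without miR-217 mimic library 1 were NRG4, SOS1, PTPN2, FOSL1, SPRY2 and SPRY4, when 6.24% of all genes were at that level, and 0 without any other library, when 0.67% to 1.19% were. The cause of these shifts was not tested.

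The labels do not say that the replicate numbers pair the libraries, and the differences between numbers 2 and 1 in mimic NC and in miR-217 mimic had a correlation of 0.68 across genes, which are not independent. With the replicate block the counts were 176 and 311 (1046 genes, 7.54%, at an unadjusted p under 0.05, 0 at an adjusted p under 0.05). The members then had an unadjusted limma p of 0.0733 (ERRFI1) to 0.607 and an adjusted p of 0.633 to 0.864, and of the list genes SOS1 (0.0101), ADAM9 (0.0139) and SPRY2 (0.0309) had an unadjusted limma p under 0.05. Limma voom with the replicate block, added after seeing the data, gave 205 and 275, with 9 genes at an adjusted p under 0.05, 0 of them members. In the latter fit 1393 of 13871 genes (10.0%) had an unadjusted p under 0.05, among them 5 of 14 ERK output genes, 4 of 18 of downregulation and traffic, 1 of 8 of shedding (ADAM9) and 1 of 16 adaptors and effectors (SOS1).

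The 7 members kept the direction of their mimic difference under each setting with all 4 libraries in which they were tested, and only EGFR, AREG and EREG averaged 5 RPKM or more. Leaving out 1 library gave ranges of -0.18 to 0.030 for EGFR, -0.24 to 0.11 for ERBB2, -0.42 to 0.12 for ERBB3, -0.32 to 0.58 for AREG, -0.18 to 0.69 for EREG, -0.25 to 0.15 for TGFA and -0.63 to 0.27 for ERRFI1. With a pseudocount of 0.1 the differences between the numbers were 1.00 for AREG, 1.03 for ERRFI1, -0.41 for ERBB2 and -0.63 for ERBB3. BTC had at most 2 reads, and HBEGF and ERBB4 were left out of the test by the filter on RPKM.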
